A study of Homo sapiens with 3 samples.

Results

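The 10 genes described here are secreted Wnt antagonists and genes used to read Wnt signalling, chosen by symbol: DKK1, DKK2, DKK3, SFRP1, SFRP2, LEF1, TCF7, TCF7L2, AXIN2 and CTNNB1. Each stood on 1 locus under its own name, among 22714 gene names in the files. RNA was sequenced in 3 libraries from TC32, an established line of Ewing sarcoma cells, which carry the EWS-FLI1 fusion in every group. The groups were a control labelled WT, a knockdown of EWS-FLI1 titled shEF, and a treatment with a compound at 3 µM for 15 h. That compound is called YK here, as in the library's title, and its full name stands in the plots. DMSO was its vehicle, and the sources used here give neither the length of the knockdown nor what the control cells received. The value column of the knockdown file is headed dEF and not shEF. With 1 library per group, there was no spread between replicates and no test, so higher and lower describe these libraries only.

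Wnt ligands bind Frizzled receptors together with the co-receptors LRP5 and LRP6. This stops a complex built on AXIN, APC and GSK3 from destroying beta-catenin, the product of CTNNB1, which then joins DNA-bound factors of the TCF/LEF family. DKK1 and DKK2 are secreted and bind LRP co-receptors, and the SFRP proteins resemble the ligand-binding part of Frizzled and bind Wnt ligands directly. In Ewing sarcoma, DKK1 is known as a gene held down by EWS-FLI1 and DKK2 as a gene that is high in the tumour.

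Promoter sequences are shown for the 3 members that passed the threshold after knockdown, DKK1, LEF1 and TCF7L2, so that TCF/LEF and ETS core letters can be seen beside their values. They are the 250 bases before the gene start, 5′ to 3′ on the gene's strand, from RefSeq on GRCh38.p14. RefSeq entries matched 6 of the 10 members, and DKK2, DKK3, SFRP1 and AXIN2 were not matched. The windows are chr10:52314031-52314280 on the plus strand for DKK1, chr4:108166302-108166551 on the minus strand for LEF1 and chr10:112949997-112950246 on the plus strand for the first of the 3 starts of TCF7L2. Capitals mark CTTTGAA, a TCF/LEF core, and GGAA or its reverse complement TTCC, the ETS core.
DKK1: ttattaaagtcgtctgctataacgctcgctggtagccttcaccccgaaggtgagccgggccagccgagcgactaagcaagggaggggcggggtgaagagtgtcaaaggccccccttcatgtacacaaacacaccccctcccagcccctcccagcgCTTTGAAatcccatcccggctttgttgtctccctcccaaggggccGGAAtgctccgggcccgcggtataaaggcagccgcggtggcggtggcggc
LEF1: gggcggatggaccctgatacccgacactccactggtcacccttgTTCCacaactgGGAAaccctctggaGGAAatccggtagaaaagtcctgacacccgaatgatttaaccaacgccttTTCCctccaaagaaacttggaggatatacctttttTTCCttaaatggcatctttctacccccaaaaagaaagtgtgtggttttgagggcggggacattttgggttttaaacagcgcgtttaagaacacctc
TCF7L2: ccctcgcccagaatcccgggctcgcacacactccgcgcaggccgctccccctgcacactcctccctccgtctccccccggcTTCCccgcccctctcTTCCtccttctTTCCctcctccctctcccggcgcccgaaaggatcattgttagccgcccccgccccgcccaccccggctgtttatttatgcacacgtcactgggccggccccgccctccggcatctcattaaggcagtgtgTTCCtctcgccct

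The DKK1 window held 1 CTTTGAA, starting 95 bases before the gene start, and 1 GGAA at 50 bases. CTTTGAA was present on either strand in 3.80% of 35116 promoters of this length. The LEF1 window held 5 ETS cores and the shown TCF7L2 window 4, and neither held a TCF/LEF core. The ETS core occurred on either strand in 92.7% of all promoters. A second TCF/LEF core searched for, CTTTGAT, occurred in 2.26% of promoters and in no window of the 6 matched members. A tandem of the ETS core, GGAAGGAA, which contains the single core, occurred in 3.06% of promoters and, among the matched members, before the third start of TCF7L2 alone. Matches describe the letters of these windows and are not sites of binding.

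Values are FPKM as the authors deposited them, by definition fragments per kilobase normalised to the mapped fragments of the library. The median compared gene differed by -2.14 log2 between the knockdown and control libraries and by -2.67 between YK and control in the deposited values, so each library was scaled on the median gene, which multiplied the control by 0.325, knockdown by 1.44 and YK by 2.12. The relative log2 ratio is the difference of log2(scaled FPKM + 1), which understates differences of low genes, and 1 in either direction was the threshold. Genes with a mean deposited FPKM of at least 1 were compared, 9939 names in all. For a 1 kb transcript, a single fragment stood for roughly 0.0627 FPKM (control), 0.0166 (knockdown) and 0.0126 (YK). Summed over the 8430 compared genes with a known length, this gave roughly 43275858, 26330363 and 31812807 fragments in the same order. For the control, this sum exceeds the mapped total that 0.0627 FPKM per fragment would imply. With the lengths used here, the deposited control is thus not on a scale of its mapped fragments alone. The reason was not tested. Errors and 95% intervals given below come from these estimated fragments, whose accuracy was not tested, and cover counting error only. The labels name EWS-FLI1 as the target and not which part of it. FLI1, which gives the fusion its ETS domain, had a scaled FPKM of 21.4 in the control, 2.13 after knockdown and 17.6 with YK, and EWSR1, the other partner, had 80.2, 58.5 and 76.9. Of the Ewing sarcoma markers, 7 of 9 compared were lower after knockdown, against 17.0% of all compared genes. With YK, 0 of these 9 were lower and 1, CCK, was higher, against 1.69% and 2.41% of all compared genes. CD99, the usual surface marker of this tumour, was listed at 0 on both of its loci in all 3 libraries, so a listed 0 is not read here as absence.

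Of the 10 members, 5 passed the filter on low values: DKK1, DKK2, LEF1, TCF7L2 and CTNNB1. After knockdown 2 of these 5, DKK1 and TCF7L2, were listed higher and 1, LEF1, was lower. Among all compared genes, 17.3% were higher and 17.0% lower in that comparison. With YK, DKK1 was listed higher and no member was lower, against 2.41% and 1.69% of all compared genes. Both counts of DKK1 against control rest on a control value listed at 0, so its level in the control is not known. DKK1 also passed the filter only through its knockdown value of 39.5 deposited FPKM, as it had 0.587 with YK. The YK count thus rests on a gene under 1 deposited FPKM in both libraries of that comparison. Without DKK1, TCF7L2 was the 1 higher member after knockdown and 0 were higher with YK. LEF1 was lower with YK too when the scale came from all named genes, where 8.18% of all compared genes were lower. Set directly against knockdown, the YK library had 2 lower members, DKK1 and TCF7L2, and 0 higher, against 14.5% and 15.3% of all compared genes. The comparisons share libraries and are therefore given side by side.

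**Figure D1:**
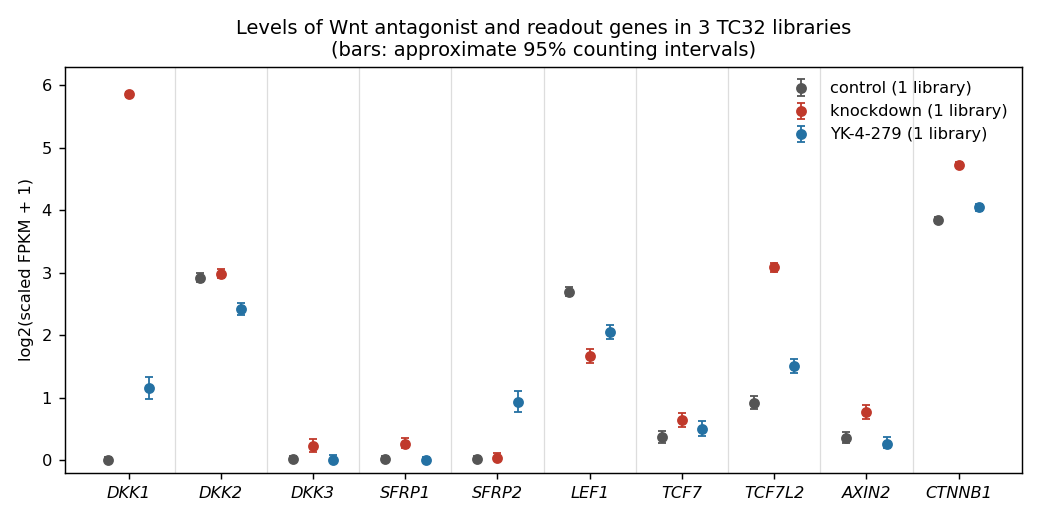
Level of each of the 10 genes on the scale log2(scaled FPKM + 1) in the control, knockdown and YK libraries (1 library each), with approximate 95% counting intervals. DKK1 stands at 5.86 after knockdown and 1.16 with YK and is listed at 0 in the control, while LEF1 is highest in the control and TCF7L2 and CTNNB1 are highest after knockdown.

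DKK1, which blocks Wnt signalling by binding LRP co-receptors, was listed at 0 in the control and had a deposited FPKM of 39.5 after knockdown and 0.587 with YK. After scaling these were 0, 56.9 and 1.24 FPKM. The knockdown library stood far above the other two, and no fold is given against the control because it was listed at 0. About 4259 fragments lay behind the knockdown value and 83.4 behind that of YK. The scaled DKK1 level was 45.8-fold lower with YK than after knockdown (relative log2 ratio -4.69, counting SE 0.09). Within its own library, DKK1 lay at percentile 91.8 of the compared genes after knockdown and at percentile 14.1 with YK. It was the highest of the 10 members after knockdown and the fifth with YK, where its counting interval of 0.985 to 1.53 scaled FPKM overlapped that of SFRP2.

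DKK2, a relative of DKK1 that binds the same co-receptors and can also act as a weak activator, had a deposited FPKM of 20.3 in the control, 4.82 after knockdown and 2.06 with YK. Its scaled FPKM was 6.59, 6.94 and 4.36 in the same order. The counting intervals of the control and knockdown values, 6.22 to 6.97 and 6.53 to 7.38, overlapped, and YK was below both. The relative log2 ratio was 0.07 (counting SE 0.05) after knockdown and -0.50 (counting SE 0.06) with YK, neither past the threshold. The DKK2 ratio after knockdown changed sign with the scaling, from -0.51 with the scale taken from all named genes to 0.35 with scaling on the upper quartile. DKK2 lay at percentile 56.3 of the compared genes in the control, 55.2 after knockdown and 47.6 with YK.

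DKK3, a divergent member of the family that is not known as an LRP-binding antagonist like DKK1, was scarce, with a deposited FPKM of 0.0487 in the control, 0.121 after knockdown and 0.00466 with YK. These values rest on about 2.06, 19.3 and 0.980 estimated fragments. Loci without a gene name had median deposited FPKM of 0.0857, 0.139 and 0.150 in the 3 libraries, and DKK3 lay below each of these medians. DKK3 thus did not stand above the median unnamed locus in any library. The lengths of those loci were not used, so their median is not a limit of detection. Shares within the DKK family do not depend on the scale between libraries. DKK2 held 10.8% of the summed deposited FPKM of DKK1, DKK2 and DKK3 after knockdown and 77.7% with YK. Its share of 99.8% in the control takes DKK1 at its listed 0 and is given as deposited only. DKK1 held 88.9% after knockdown and 22.1% with YK, and DKK3 under 1% in each library.

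SFRP1, a secreted Frizzled-related protein, had a deposited FPKM of 0.0513 in the control, 0.140 after knockdown and 0.00257 with YK. The values lay at percentiles 34.4, 50.8 and 0.579 of the unnamed loci and rested on about 3.68, 38.0 and 0.918 fragments. SFRP2, another protein of this kind, had 0.0339 FPKM in the control, 0.0179 after knockdown and 0.431 with YK. About 1.1, 2.19 and 69.5 fragments lay behind these, so the control and knockdown values rest on a few fragments only. SFRP2 with YK lay at percentile 99.2 of the unnamed loci of its library, and its scaled FPKM there was 0.912 (95% counting interval 0.716 to 1.16). The relative log2 ratio of SFRP2 with YK was 0.92 against control (counting SE 0.08), but SFRP2 did not pass the filter on low values and is counted in no direction. With a pseudocount of 0.1 the same ratio was 3.19.

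**Figure D2:**
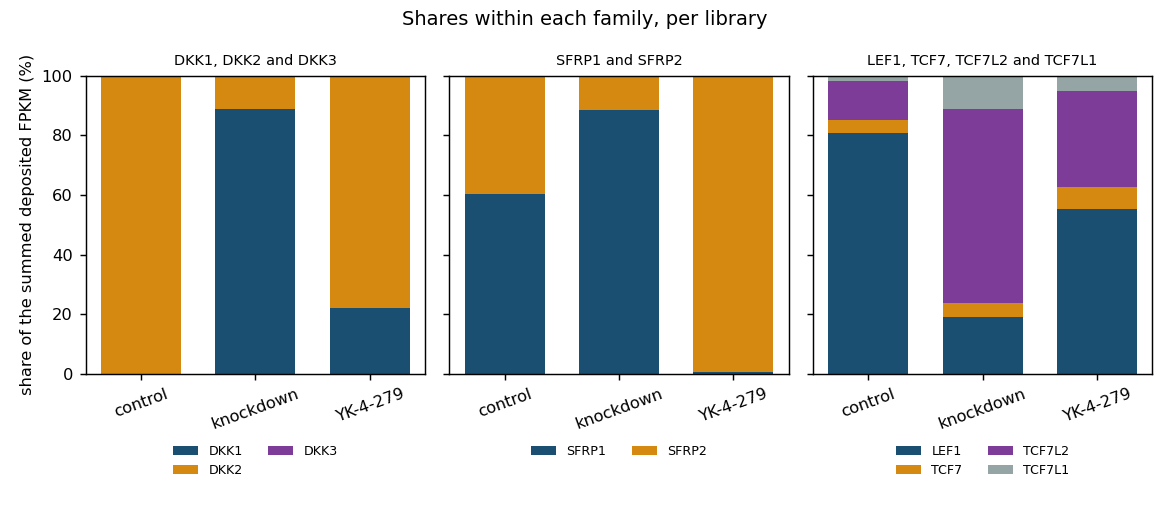
Share (%) of each gene in the summed deposited FPKM of its family, per library, for DKK1 to DKK3, SFRP1 and SFRP2, and the 4 TCF/LEF genes. DKK2 fills the DKK bar in the control, where DKK1 is listed at 0, and DKK1 holds 88.9% of it after knockdown, LEF1 holds 80.8% of the TCF/LEF bar in the control and TCF7L2 65.1% after knockdown, and DKK3 is too small to be seen; the SFRP bars of the control and knockdown libraries rest on few fragments.

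CTNNB1, which encodes beta-catenin, had a deposited FPKM of 41.0 in the control, 17.8 after knockdown and 7.33 with YK, or 13.3, 25.6 and 15.5 after scaling. The knockdown library was the highest and the other two lay closer together, with counting intervals of 12.9 to 13.8 and 14.9 to 16.1 that did not overlap. The relative log2 ratio was 0.89 (counting SE 0.03) after knockdown and 0.21 (counting SE 0.04) with YK, and neither reached the threshold. Over all compared genes the ratio after knockdown differed with the level, with a median of 0.37 in the least abundant of 5 equal classes and -0.84 in the most abundant. With the running median along the level subtracted, CTNNB1 stood at 1.48 after knockdown, where 14.8% of all compared genes were higher. With upper quartile scaling it stood at 1.21, where 24.0% were higher and 9.87% lower. With the scale from all named genes it stood at 0.26. CTNNB1 was the most abundant member in the control and with YK, and its percentile among compared genes was 68.9 in the control, 83.1 after knockdown and 72.3 with YK.

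The TCF/LEF genes encode the DNA-binding partners of beta-catenin, and their make-up differed between the libraries. LEF1, itself a target of the pathway, had a deposited FPKM of 17.0 in the control, 1.53 after knockdown and 1.49 with YK, which scaled to 5.51, 2.2 and 3.15. The control was the highest and the knockdown library the lowest, with counting intervals that did not overlap between any of the 3. The relative log2 ratio was -1.02 (counting SE 0.07) after knockdown, just past the threshold, and -0.65 (counting SE 0.07) with YK. It was -0.77 after knockdown with upper quartile scaling and -0.55 with a pseudocount of 5, short of the threshold. It was -1.54 after knockdown and -1.08 with YK with the scale from all named genes. LEF1 lay at percentile 52.9 of the compared genes in the control, 19.2 after knockdown and 39.5 with YK. The antisense gene LEF1-AS1 had scaled FPKM of 1.59, 0.529 and 1.12 in the same order. Whether strand was used in counting is not given in the sources used here, so reads of LEF1 and its antisense partner may not have been told apart where they overlap.

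TCF7L2, the TCF factor also known as TCF4, had a deposited FPKM of 2.76 in the control, 5.23 after knockdown and 0.871 with YK. Scaled, these were 0.897, 7.53 and 1.84 FPKM, from about 182, 1301 and 286 fragments. The knockdown library was the highest and the control the lowest. The relative log2 ratio was 2.17 (counting SE 0.06) after knockdown and 0.58 (counting SE 0.07) with YK, which was 4.08-fold lower than knockdown in scaled FPKM. After knockdown it was 1.73 with the scale from all named genes, 1.09 with a pseudocount of 5 and 0.73 without scaling. With YK it ran from -1.01 without scaling to 1.19 with the deposited ratios centred on their median. TCF7L2 lay at percentile 12.3 of the compared genes in the control, 57.3 after knockdown and 24.6 with YK. Its scaled level after knockdown was close to that of DKK2, with counting intervals that overlapped.

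TCF7, which encodes TCF1 and is also a target of the pathway, had a deposited FPKM of 0.906 in the control, 0.387 after knockdown and 0.20 with YK and did not pass the filter. Its scaled FPKM of 0.294, 0.557 and 0.422 gave relative log2 ratios of 0.27 and 0.14 with counting SE of 0.08 for both. TCF7L1, the fourth gene of the family and no member of the group, had scaled FPKM of 0.113, 1.28 and 0.298. The median unnamed locus had scaled FPKM of 0.0278, 0.1996 and 0.318, so it too was lowest in the control. Among unnamed loci, TCF7 lay at percentile 98.3 in the control, 97.4 after knockdown and 79.9 with YK. TCF7L1 lay at 94.1, 99.4 and 42.8. The higher scaled values of TCF7 and TCF7L1 with YK than in the control are thus not read as a rise. As shares of the summed deposited FPKM of the 4 genes, LEF1 held 80.8% in the control, 19.0% after knockdown and 55.2% with YK. TCF7L2 held 13.2%, 65.1% and 32.3%. LEF1 was thus the most abundant of the 4 in the control and with YK, and TCF7L2 after knockdown.

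AXIN2, a scaffold of the destruction complex and the most widely used target gene of beta-catenin, had a deposited FPKM of 0.869 in the control, 0.491 after knockdown and 0.0965 with YK. Scaled, these were 0.282, 0.707 and 0.204 FPKM from about 59.1, 126 and 32.6 fragments. Knockdown was the highest, with a counting interval of 0.590 to 0.843 above those of the other two, which overlapped. AXIN2 did not pass the filter, and its relative log2 ratio was 0.41 (counting SE 0.07) after knockdown and -0.09 (counting SE 0.06) with YK. After knockdown it was 0.21 with the scale from all named genes and -0.33 without scaling. With YK it lay at percentile 15.5 of the unnamed loci, against 98.2 in the control and 98.5 after knockdown. The median unnamed locus also had a higher scaled FPKM after knockdown, 0.1996 against 0.0278 in the control. The higher scaled AXIN2 value after knockdown is thus not read as a rise. The readout genes thus differed in direction after knockdown, with LEF1 lower, TCF7L2 higher, and TCF7 and AXIN2 below the filter in deposited value.

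In order of scaled FPKM, the control had CTNNB1, DKK2, LEF1 and TCF7L2 at the top, each apart from the next beyond the counting intervals. TCF7 and AXIN2 followed with overlapping intervals, and then SFRP1, DKK3, SFRP2 and DKK1, which also overlapped. After knockdown DKK1 came first and CTNNB1 next, ahead of TCF7L2 and DKK2, which overlapped, and LEF1. AXIN2 and TCF7 overlapped below these, as did SFRP1 and DKK3, and SFRP2 was last. With YK the first 4 genes stood in the order of the control, and DKK1 and SFRP2 came next with overlapping intervals, ahead of TCF7, AXIN2 and the overlapping DKK3 and SFRP1. The order of the control was thus kept at the top with YK and not after knockdown.

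**Figure D3:**
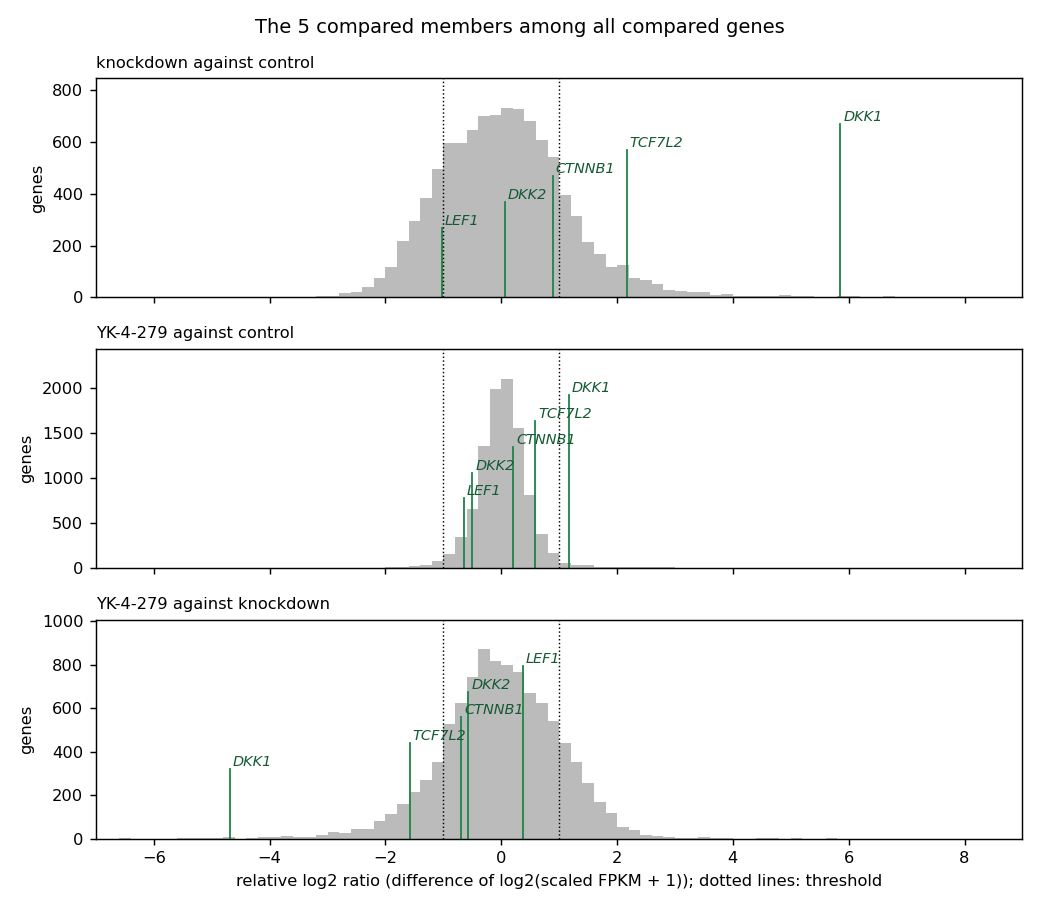
Distribution of the relative log2 ratio over the 9939 compared genes in each comparison (grey, number of genes per bin), with the 5 compared members as green lines and the threshold as dotted lines. DKK1 lies at 5.86 after knockdown and 1.16 with YK (control listed at 0), TCF7L2 at 2.17 and 0.58, and LEF1 at -1.02 and -0.65; the spread of all genes is narrower with YK than after knockdown.

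The 5 compared genes whose pattern lay nearest to that of DKK1, by Euclidean distance over its 2 relative log2 ratios to control, were ANKRD1, IGFBP7, NT5E, A2M and the merged locus of COL3A1 with MIR1245A and MIR3606. Distances ran from 0.171 for the COL3A1 locus to 0.425 for A2M over 3 libraries. ANKRD1, a target gene of YAP, had scaled FPKM of 0.0252 in the control, 54.0 after knockdown and 1.06 with YK. NT5E, a surface nucleotidase of mesenchymal cells, had 0.0238, 45.8 and 1.24. The likeness describes these libraries and the 1 added to each value. The ratios of DKK1 rest on a control listed at 0, so that added 1 sets their size in part. ANKRD1, IGFBP7 and NT5E lay under 1 deposited FPKM in the control and YK libraries. Like DKK1, they passed the filter on low values only through the knockdown library.

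Markers of other cell types were examined beside these values. Of the 6 compared fibroblast or stromal markers, 5 were higher and 1, DCN, lower after knockdown, against 17.3% and 17.0% of all compared genes. Summed scaled FPKM over all 9 genes of the list was 27.9 in the control, 173 after knockdown and 33.3 with YK. The merged locus of COL3A1 alone gave 1.13, 112 and 3.4 of these sums. With YK, 1 of these 6, COL3A1, was higher at 1.05, against 2.41% of all compared genes. COL3A1 stood at 3.47, 77.6 and 1.61 deposited FPKM. Endothelial markers summed to 0.165, 1.45 and 1.5 scaled FPKM, with CDH5 listed at 0 after knockdown, and none of the 5 passed the filter. Leukocyte markers summed to 20.2, 27.4 and 14.6, nearly all of it CD68, while CD3E was listed at 0 in all 3 libraries. Epithelial markers summed to 2.53, 6.56 and 6.29, with none at 0, and the 1 compared, KRT18, was higher after knockdown at 1.18. The part of the stromal markers in the DKK1 and TCF7L2 values was not tested. All 3 libraries were labelled as TC32. In bulk RNA, a change in the share of cells that express a marker and a change in its RNA per cell cannot be told apart.

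The rest of the pathway was described by lists of 114 further genes, all present in the files, of which 48 were compared. After knockdown 19 of the 48 were higher (39.6%) and 3 lower (6.25%), against 17.3% and 17.0% of all compared genes, with a median relative log2 ratio of 0.67 against 0.0064 over all compared genes. With the scale from all named genes, 8 were higher and 4 lower, where 9.17% of all genes were higher and 33.8% lower, and the median was 0.16 against -0.50. With the running median along the level subtracted, 11 were higher and 2 lower, against 14.8% and 10.8% of all genes. With YK, 2 of the 48 were higher and 0 lower, against 2.41% and 1.69% of all compared genes, with a median of 0.13 against 0.029. With the scale from all named genes, 1 was higher and 5 lower, where 1.56% and 8.18% of all genes were. Set against knockdown, the YK library had 4 of the 48 higher and 14 lower (29.2%), against 15.3% and 14.5% of all compared genes, with a median of -0.68. These counts were 4 and 9 with the scale from all named genes, where 18.4% of all genes were higher and 11.7% lower.

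Of the receptors and co-receptors, 6 of 9 compared were higher after knockdown and 0 lower, against 17.3% and 17.0% of all compared genes, with a median of 1.48. With YK, 0 of the 9 passed the threshold in either direction (median 0.42). Against knockdown, 5 of the 9 were lower with YK and 0 higher, where 14.5% and 15.3% of all compared genes were. ROR1, a receptor of WNT5A, had scaled FPKM of 0.607 in the control, 9.0 after knockdown and 1.42 with YK (relative log2 ratios 2.64 and 0.59). FZD7, a Frizzled receptor, had 1.82, 14.03 and 2.6 (2.42 and 0.35). With the scale from all named genes, 4 of the 9 were higher, against 9.17% of all compared genes, and with the running median subtracted 5, against 14.8%. The co-receptor LRP6, to which DKK1 binds, was among the higher genes at 1.93, and LRP5 did not pass the filter. Of the 2 compared genes of the R-spondin module, LGR4, a receptor for R-spondins, was higher after knockdown at 3.07, with scaled FPKM of 0.378, 10.6 and 1.16.

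Of 19 ligands, WNT2B and WNT5A alone passed the filter on mean deposited FPKM, and neither passed the threshold in any comparison. WNT2B stood on a merged locus that also carries another name, so its value cannot be assigned to WNT2B alone. WNT5A, a ligand that mostly signals outside the beta-catenin branch, had scaled FPKM of 7.16, 6.02 and 6.74. WLS, which carries Wnt ligands to the cell surface, was higher after knockdown at 1.85, with 12.6, 48.0 and 10.5 scaled FPKM, and PORCN, which attaches their lipid, stood at -0.47. Among 4 other compared antagonists and DKK receptors, TPBG, a surface inhibitor of the pathway, was higher after knockdown at 1.3 (0.87 with the scale from all named genes). Of all compared genes, 17.3% were higher after knockdown and 2.41% with YK. APCDD1, a membrane-bound inhibitor and target gene, was higher with YK at 2.04, with scaled FPKM of 2.05, 4.11 and 11.6. It also stands in the list of further target genes and is counted there again.

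**Figure D4:**
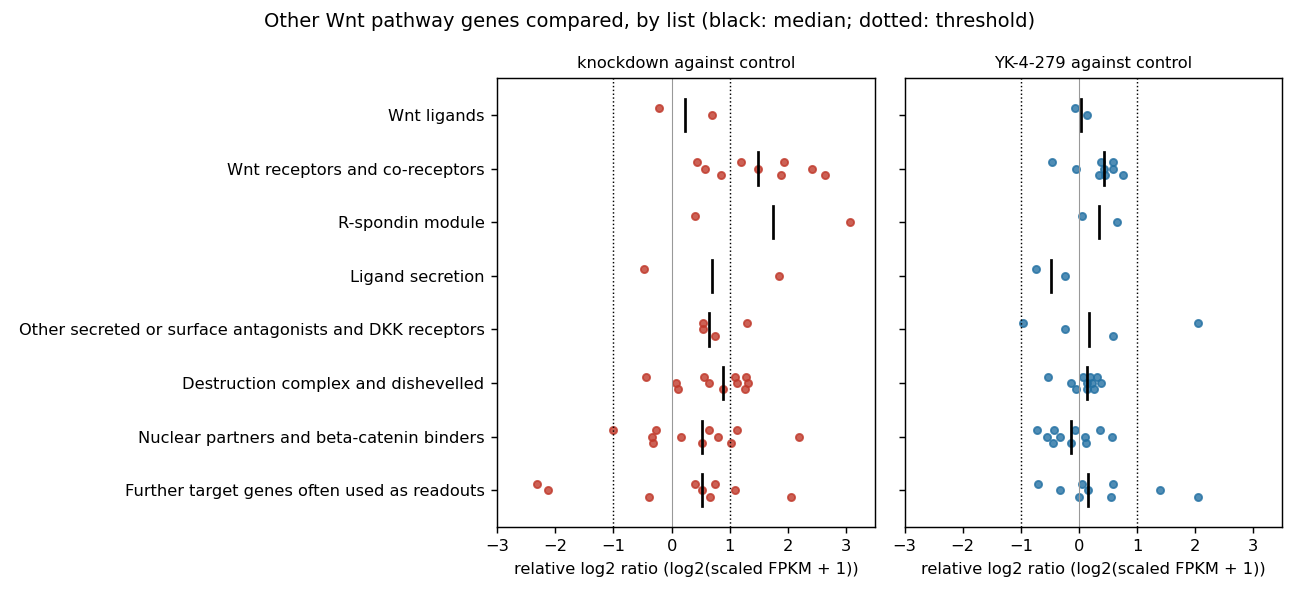
Relative log2 ratio to control of the compared genes of each fixed Wnt list (points) with the list median (black) and the threshold (dotted), after knockdown at left and with YK at right. Receptors and co-receptors have 6 of 9 points past the threshold after knockdown and 0 of 9 with YK.

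Of 11 compared genes of the destruction complex and dishevelled, 5 were higher and 0 lower after knockdown, and 0 passed the threshold with YK. Of all compared genes, 17.3% were higher and 17.0% lower after knockdown, and 2.41% and 1.69% with YK. The kinase CSNK1D at 1.32 and DVL2 at 1.29 were the highest of the list after knockdown. Of these 11, 0 were higher after knockdown with the scale from all named genes or with the running median subtracted. Those settings had 9.17% and 14.8% of all compared genes higher. Nuclear partners and binders of beta-catenin had 3 of 11 higher and 1 lower after knockdown, against 17.3% and 17.0% of all compared genes. TLE4, a co-repressor of TCF factors, was the highest at 2.19 and CTNNA1, which links beta-catenin to the cytoskeleton, stood at 1.12. The deacetylase HDAC1 was the 1 lower gene, at -1.0, and 0 of the 11 were lower with upper quartile scaling or with the running median subtracted. Under those settings 9.87% and 10.8% of all compared genes were lower. Only TLE4 of the 3 higher genes was past the threshold with the scale from all named genes, where CTNNA1 stood at 0.46.

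Of 9 compared further target genes, 2 were higher and 2 lower after knockdown, against 2 higher and 0 lower with YK. Among all compared genes, 17.3% were higher and 17.0% lower after knockdown, and 2.41% and 1.69% with YK. CCND1, cyclin D1, had scaled FPKM of 20.2 in the control, 3.24 after knockdown and 12.1 with YK (relative log2 ratios -2.32 and -0.70). BIRC5, survivin, had 286, 64.5 and 284 (-2.13 and -0.01). EPHB2, an ephrin receptor, and VEGFA, a vascular growth factor, were the higher genes after knockdown at 2.06 and 1.1. When the scale came from all named genes, 1 of the 9 was higher and 3 lower after knockdown, with VEGFA at 0.68 and ID2 at -1.05. In that setting 9.17% of all compared genes were higher after knockdown and 33.8% lower. ID2, an inhibitor of differentiation factors, and APCDD1 were the higher genes with YK, at 1.39 and 2.04, and ID2 was 0.88 with the scale from all named genes. MYC stood at 0.66 after knockdown and -0.33 with YK, neither past the threshold.

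Directly between YK and knockdown, the receptors FZD7 and ROR1 were lower with YK at -2.06 and -2.05, LGR4 at -2.42 and WLS at -2.09. The dishevelled gene DVL3, which relays the signal from Frizzled, stood at -1.19, CSNK1D at -1.13 and TLE4 at -2.08, and BCL9, a co-activator of beta-catenin, at -1.08. SOSTDC1, a secreted antagonist, was lower at -1.5 and APCDD1 higher at 1.3. Of the target genes, BIRC5 and ID2 were the highest at 2.12 and 1.78, and EPHB2 was the 1 lower gene at -1.52. CSNK1D and BCL9 were short of the threshold with the scale from all named genes, at -0.99 and -0.93.

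**Figure D5:**
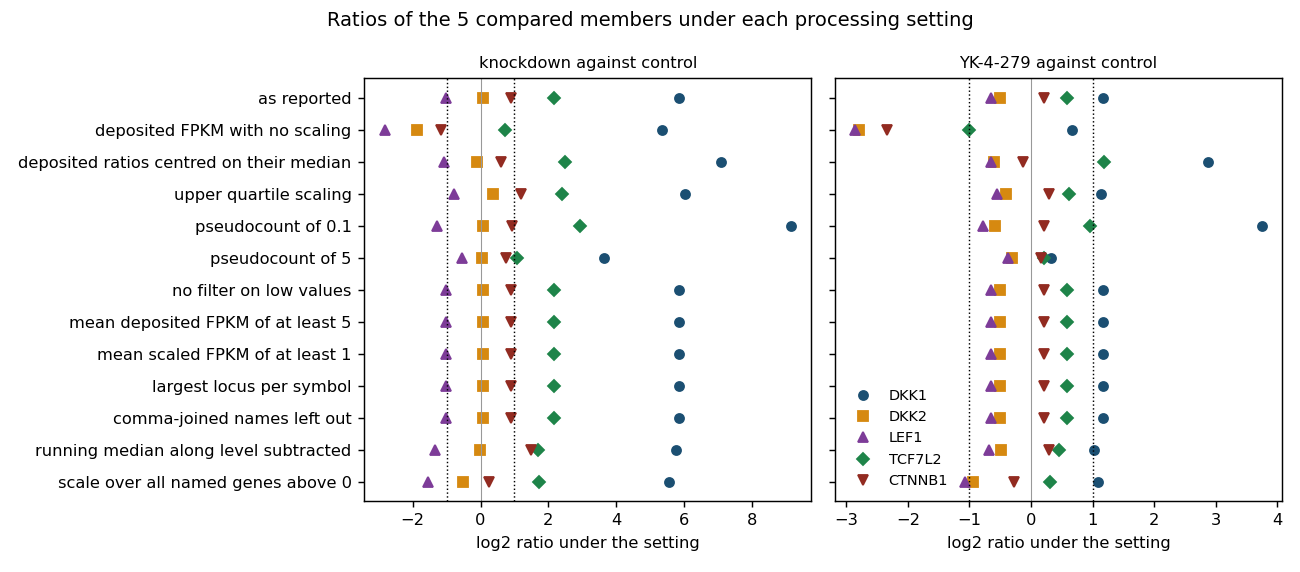
Log2 ratio to control of the 5 compared members (points) under each processing setting, after knockdown at left and with YK at right, with the threshold as dotted lines. DKK1 after knockdown lies between 3.63 and 9.16 over the settings, LEF1 between -2.83 and -0.55, and the deposited values without scaling lie to the left of the others for DKK2, LEF1, TCF7L2 and CTNNB1.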

How the data were processed

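Expression was measured by RNA-seq in 3 libraries of TC32 cells, 1 per group. The submitters' processing notes name TopHat, Cufflinks 2.2.1, CASAVA 1.8.2 and hg19 (GRCh37). The authors deposited FPKM for 88434 loci per library, of which 24751 carry a gene name. The sources used here do not give the annotation, strand setting, filters or any scaling between libraries.

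Loci of a name were summed (22714 names), and 9939 names with a mean deposited FPKM of at least 1 were compared. Median-of-ratios factors were taken from the 9883 compared genes that no library lists at 0, and 1 was added before log2. The planned wording did not say whether unfiltered names enter this median. The scale over all 17160 names above 0 leaves the median compared gene at -0.50 after knockdown and -0.38 with YK, and was added as an alternative after seeing the data. Members and lists were chosen with earlier results of these data known. Named genes are the members, FLI1, the up to 2 highest and 2 lowest genes past the threshold per Wnt list and comparison, and the 5 genes nearest to DKK1. Genes outside this rule were chosen after their values were seen.

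Fragments per gene were estimated from the steps of low values (olfactory receptor genes in the control, ratios of unnamed loci between libraries) and lengths from GENCODE release 29, and intervals are exact Poisson at 95%. They are approximate and cover counting error only. Scaling was tested on simulated data. Python 3.11.15, pandas 2.3.3, numpy 2.4.6 and scipy 1.17.1 were used.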

Additional observations from a re-analysis of the deposited data

How the results depend on the processing

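The counts of members past the threshold were recomputed under 12 alternatives in all 3 comparisons, and 60 of 72 counts stayed within 1.5 times the reported one. These 60 include counts of 0 that stayed 0, and 3 members against 2 also fall within that range. Each member stood on 1 unmerged locus, so taking the largest locus or leaving out merged names could act only through the scale. The number of unchanged counts is therefore no measure of stability. Without scaling, 1 member was higher and 3 lower after knockdown, and 0 higher and 4 lower with YK, where the whole deposited scale differs between libraries. Centring the deposited ratios gave 2 higher members with YK. Shares of all compared genes are not given for unscaled or centred values, the pseudocount of 5 or the filter of 5. Member counts under those settings are therefore not read as results about the members. Upper quartile scaling, where 9.87% of all compared genes were lower, gave 0 lower members after knockdown. A pseudocount of 5 also gave 0 lower members after knockdown, with 0 higher members with YK and 1 lower member for YK against knockdown. A mean deposited FPKM of at least 5, which TCF7L2 does not reach, gave 1 higher member after knockdown and 1 lower for YK against knockdown. The scale over all named genes gave 1 lower member with YK, LEF1, where 8.18% of all compared genes were lower. No member ratio that was past the threshold as reported changed sign under these 12 alternatives. CTNNB1 after knockdown, short of it as reported, was counted as higher at 1.21 with upper quartile scaling and at 1.48 with the running median subtracted. Without scaling it was counted as lower, at -1.16. TCF7L2 with YK was counted as higher at 1.19 with centred deposited ratios and as lower at -1.01 without scaling. DKK1, with a control listed at 0, was counted as higher after knockdown under 12 of 12, TCF7L2 under 10 and DKK1 with YK under 10, and LEF1 after knockdown was counted as lower under 10. A listed 0 stays 0 under every scale, so DKK1 could not turn lower against control. The counts of DKK1 are therefore no measure of stability.

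DKK3, SFRP1 and, in the control and knockdown libraries, SFRP2 rest on few fragments, so depth limits what can be said of them. No paired analysis was possible because each group has 1 library. Which alternative is closest to the cells was not tested.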

Other observations

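Some antagonists and target genes lay under the filter on low values but had most of their estimated fragments in 1 library. They were chosen after their values were seen and are given as values only. SFRP4, a secreted Frizzled-related protein, was listed at 0 in the control and had a deposited FPKM of 0.947 after knockdown and 0.0310 with YK, from about 169 and 7.3 estimated fragments. FRZB, another protein of that family, had deposited FPKM of 0.142, 0.423 and 0.949 in the control, knockdown and YK libraries, from about 7.17, 80.5 and 238 fragments. FRZB and SFRP2 were thus highest with YK, while SFRP4 and DKK1 were highest after knockdown. TNFRSF19, a receptor used as a readout of the pathway, had deposited FPKM of 0.602, 1.74 and 0.0460, and JUN, a subunit of AP-1, had 0.277, 1.53 and 0.118, both highest after knockdown.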
